A study of Mus musculus with 6 samples.

Results

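Potassium and calcium channel genes were followed in cultured mouse vascular smooth muscle cells. They were taken by name, as all genes of the deposited table whose symbol is that of a potassium channel subunit (Kcn, a family letter or letters and a number) or of a voltage-gated calcium channel subunit (Cacna, Cacnb or Cacng and a number). The rule found 97 of the 23197 genes listed, of which 74 were potassium and 23 calcium channel genes. A gene was counted as expressed with at least 60 reads summed over the 6 libraries, which 32 channel genes reached, 23 for potassium and 9 for calcium channels. The cells were primary mouse cells bought from a supplier, with no animal, sex or pooling given in the labels. There were 3 libraries of cells transfected with a negative control and 3 of cells transfected with siRNA against Arid3a, numbered #1 to #3 in the labels without saying whether these are different siRNAs, and all were incubated for 24 h. Angiotensin II exposure is part of the described culture model, but whether any of these libraries had it is not stated. Nothing in the labels says that libraries came from separate cultures, so the p-values here cover only the spread among these 6 samples, and that spread may be technical.

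In an arterial smooth muscle cell, potassium channels let potassium leave and hold the membrane negative, and voltage-gated calcium channels open on depolarisation and admit the calcium that starts contraction. A calcium channel is built on a pore subunit, with a cytoplasmic beta subunit and an extracellular alpha2delta subunit that govern its delivery to the membrane and its gating. Potassium channels fall into voltage-gated, calcium- or sodium-activated, inwardly rectifying and tandem-pore-domain families, some of which bind accessory subunits. Smooth muscle that leaves the contractile state and proliferates is known to lose the large-conductance calcium-activated channel Kcnma1 and the L-type calcium channel, and to gain the intermediate-conductance channel Kcnn4.

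The potassium pore subunits are shown by the bases that encode the selectivity filter, the ring that passes potassium, because this stretch separates pore-forming from accessory members and was not used to choose them. The search was for codons of threonine, any residue, glycine, tyrosine or phenylalanine, and glycine, in the longest coding sequence of each gene in GENCODE M21 on GRCm38, the assembly also called mm10. Of 62 pore-forming potassium members 52 held it, and the other 10 (6 Kcnh genes, Kcnn1, Kcnn2, Kcnn3 and Kcnj14) held it with serine in place of threonine, a form added to the search after the first result was seen. None of the 12 accessory members (Kcnab, Kcne, Kcnip and Kcnmb genes) held either form. Of 13 tandem-pore-domain members 10 held the threonine form at 2 places. Capitals mark the 15 bases of the signature, with 9 bases on either side, read 5′ to 3′ on the coding strand, for some of the pore subunits named in the results.
Kcnma1: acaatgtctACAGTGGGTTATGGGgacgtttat
Kcna4: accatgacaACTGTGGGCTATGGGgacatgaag
Kcnd1: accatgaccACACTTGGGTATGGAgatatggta
Kcnf1: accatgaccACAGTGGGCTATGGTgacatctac
Kcnh2: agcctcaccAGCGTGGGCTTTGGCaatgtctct
Kcnj2: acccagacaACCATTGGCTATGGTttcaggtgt
Kcnj3: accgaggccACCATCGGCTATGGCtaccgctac
Kcnk2: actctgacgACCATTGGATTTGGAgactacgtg
The capitals lie in coding exons, at chr14:23528413-23528427 (minus strand, exon 8) for Kcnma1 and chr2:107296495-107296509 (plus strand, exon 2) for Kcna4. Those of Kcnd1 are split between exons on the plus strand of chromosome X, from 7824956 to 7831178. The stretch of Kcnk2 is the second of its filters, at chr1:189256581-189256595 (minus strand, exon 5). The others are at chr12:17175061-17175075 (minus strand, exon 1) for Kcnf1, chr5:24325555-24325569 (minus strand, exon 7) for Kcnh2, chr11:111072207-111072221 (plus strand, exon 2) for Kcnj2 and chr2:55437627-55437641 (plus strand, exon 2) for Kcnj3.

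Among the calcium channel pore subunits a second stretch separates the members by type. High-voltage-activated channels bind a beta subunit through a conserved stretch of the loop after their first repeat, while T-type channels lack it. Codons of its start (glutamine, glutamine, any residue, glutamate, any pair of residues, leucine, any residue, glycine, tyrosine) were found in 7 of 10 pore members. The other 3 were the T-type genes Cacna1g, Cacna1h and Cacna1i. Capitals mark the 30 bases found in the expressed genes that hold them.
Cacna1c: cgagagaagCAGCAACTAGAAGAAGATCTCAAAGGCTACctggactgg
Cacna1a: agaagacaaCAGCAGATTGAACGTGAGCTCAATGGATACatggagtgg
They lie at chr6:118734930-118734959 (minus strand, exon 9) and chr8:84536125-84536154 (plus strand, exon 8).

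The libraries held 17029735 to 22799935 gene counts, of which the channel genes took 0.0401%. The targeted gene Arid3a was no lower under the siArid3a label: controls 1 to 3 gave 375, 370 and 391 reads, siArid3a 1 to 3 gave 380, 367 and 376, and the log2 fold change was −0.03 (SE 0.13, adjusted p = 0.943 by edgeR). Directions below are those of libraries with that label, since no loss of Arid3a RNA was measured in them. Smooth muscle markers were present, with 9 of 10 tested. Their sum was 711 to 822 CPM (counts per 1000000, TMM-scaled) in the controls and 731 to 969 CPM in siArid3a. Acta2, Actg2, Smtn and Cnn1 made up most of it, averaging 547, 141, 71.4 and 30.2 CPM over all libraries. Lmod1, Synpo2, Tagln, Myocd and Des had 593, 395, 158, 146 and 81 reads in all, and Myh11 had only 30. Fibroblast markers summed to 1435 to 1734 CPM in the controls and 1278 to 1625 CPM in siArid3a, above the smooth muscle sum in both groups. Col1a1, Dcn and Pdgfra led the fibroblast sum, at 1032, 445 and 73.7 CPM over all libraries, while Lum, Pi16 and Dpt had 193, 119 and 12 reads. Epithelial and mesothelial markers summed to 159 to 179 and 131 to 149 CPM. Macrophage markers summed to 60.8 to 72.8 and 41.8 to 57.3 CPM, endothelial markers to 20.5 to 30.2 and 16.6 to 25.0 CPM, striated muscle markers to 5.00 to 8.34 and 6.55 to 7.67 CPM, and glial markers to 0.771 to 2.14 and 1.16 to 1.64 CPM. The epithelial and mesothelial sum and the macrophage sum did not overlap between groups, nor did 20.0% of all genes tested singly. Most of the macrophage sum was Cd14, at 47.1 CPM over all libraries, while Ptprc and Adgre1 had 20 and 5 reads. Msln and Krt19, at 110.7 and 39.0 CPM, led the other sum, in which Epcam, Krt8 and Krt18 had under 60 reads. Whether cell types differed between groups, and their part in the channel results, was not tested. Of the neuron list, 4 of 7 genes had counts to analyse, all under 60 reads, and their sum was 0.544 to 0.989 CPM in the controls and 0.420 to 0.654 CPM in siArid3a.

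**Figure D1:**
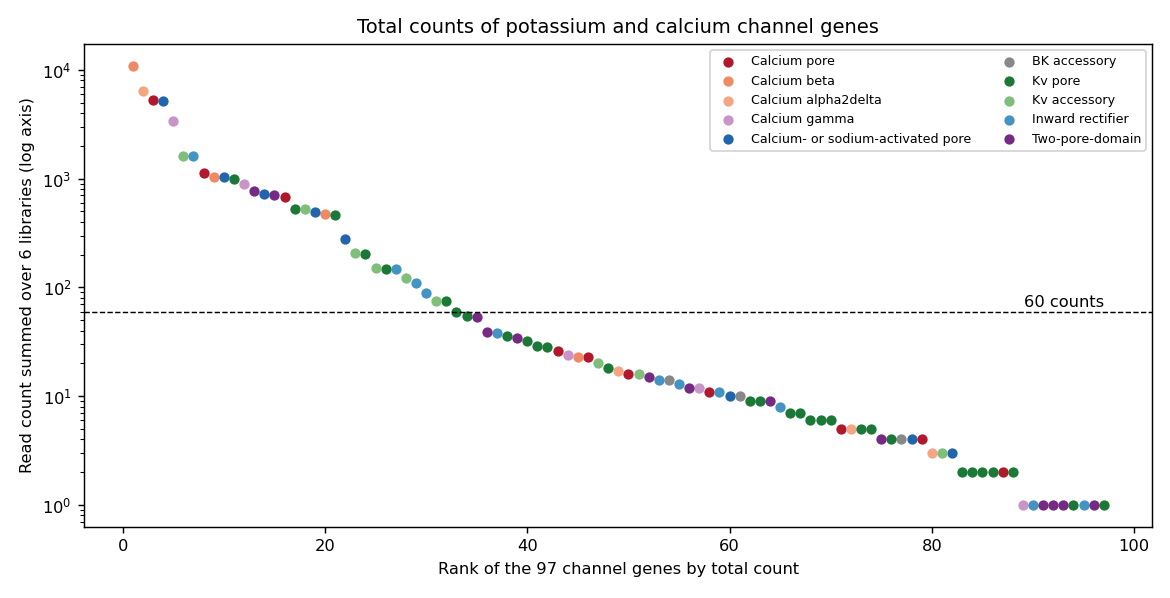
Read counts of the 97 channel genes summed over the 6 libraries (log axis), in order of rank and coloured by family, with the threshold of 60 reads as a dashed line. The 32 genes above the line run from 75 to 10883 reads, and the 65 below it from 1 to 59.

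Most channel genes were hardly read at all. The 32 expressed genes held 98.2% of the channel counts, and the 5 highest, Cacnb3, Cacna2d1, Cacna1c, Kcnn4 and Cacng7, held 65.9%. Of the other 65 genes, 40 had under 12 reads over the 6 libraries. The nearest to the threshold from below were Kcnh6 with 59, Kcnh1 with 55 and Kcnk4 with 53 reads, and from above Kcnip1 with 75. The share of channel genes at 60 reads was 33.0%, where 56.7% of all listed genes reached it. Expressed channel genes were also low, with a median of 5.11 CPM, where all genes tested had a median of 27.6 CPM. Only 7 of the 32 had 10 CPM or more, and 10 had under 2 CPM.

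Levels were compared between genes per kilobase of exonic sequence, from all annotated exons of a gene. On this scale the order of mean levels began with Cacnb3 at 23.3 ± 3.84 CPM per kilobase, then Cacng7 at 11.9 ± 0.867, Kcnn4 at 8.63 ± 0.961 and Cacna2d1 at 4.37 ± 0.259 (SD, n = 6 libraries). The ranges of these first 4 did not overlap between neighbours. Below them all 28 neighbouring pairs in the order of the 32 genes had overlapping ranges, and whether neighbours there differ in level was not tested. These 4 and Cacng8, the next in order, also led in the same order when the longest transcript was used as the length. Further down the order moved with the length used, and Cacnb2 went from rank 27 by exonic sequence to rank 17. The family shares below rest on exonic sequence and were not computed with the longest transcript. The deposited gene lengths are whole spans with introns, and whether intronic reads were counted is not stated. Cacnb3 had 795 reads per kilobase of its span, while Kcnma1, whose span is 725061 bases, had 1.01, and Kcnip4, spanning 1135406 bases, had 0.107. Intronic and exonic reads cannot be told apart in such counts, and 10 of the 32 expressed genes span over 300 kilobases.

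**Figure D2:**
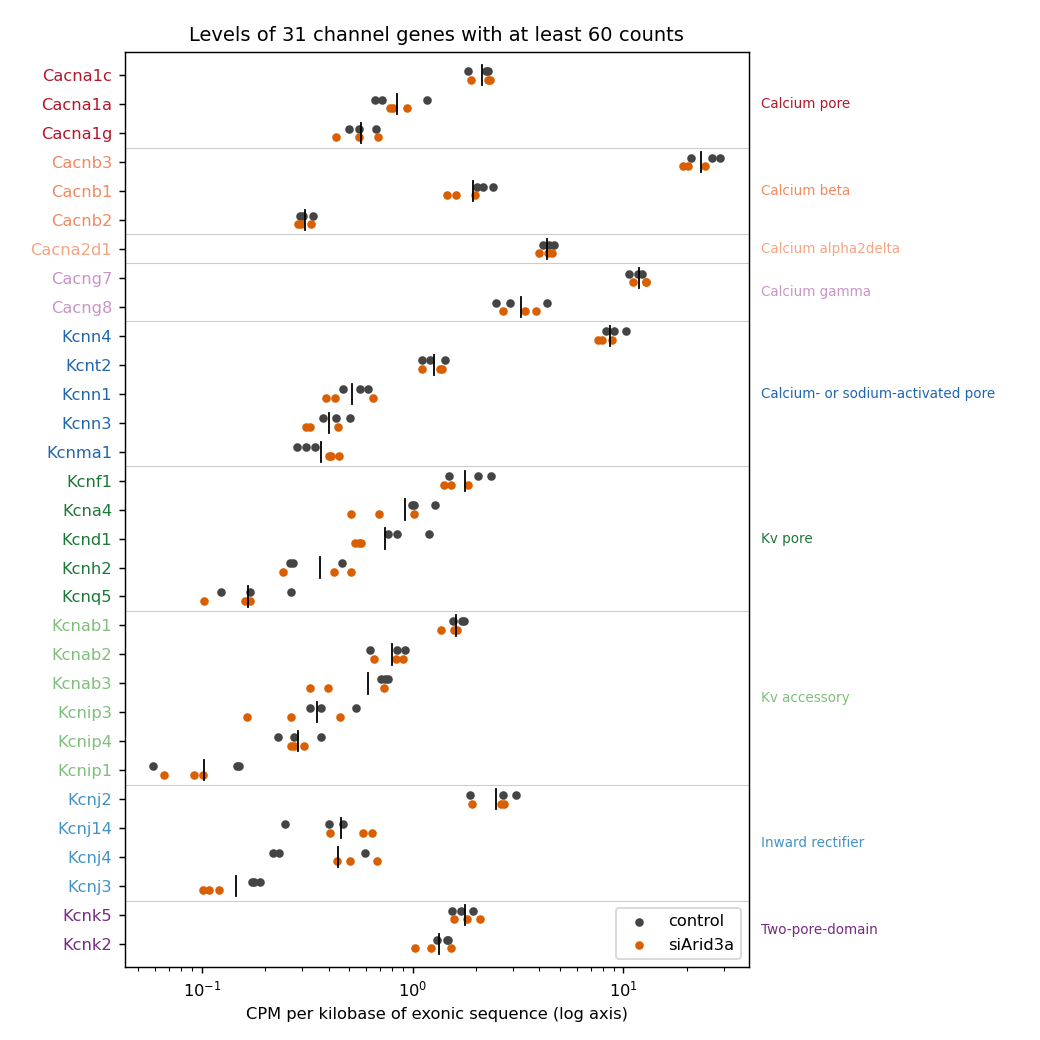
CPM per kilobase of exonic sequence (log axis) of 31 of the 32 expressed channel genes, by family. Points are the 3 control and 3 siArid3a libraries, and the vertical line is the mean of all 6. Cacnb3 leads at 23.3 and Kcnip1 is the lowest plotted at 0.102.

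Of the calcium channel pore transcripts the L-type one was the highest, beside P/Q-type and T-type pores and beta, alpha2delta and gamma transcripts. Cacna1c, the pore of the L-type channel that carries most calcium entry in arterial smooth muscle, lies on chromosome 6 (118587240 to 119196890, minus strand). It had 47.2, 38.6 and 48.1 CPM across controls 1 to 3, against 48.4, 49.4 and 40.1 CPM across siArid3a 1 to 3. The groups overlapped, and the log2 fold change was 0.04 (SE 0.11), with a 95% interval from 0.879 to 1.21 times the control level. Cacna1c made up 59.0% ± 3.60 of the summed level per kilobase of the 10 pore genes (SD, n = 6). Cacna1a, the P/Q-type pore best known from nerve terminals, made up 23.3% ± 3.84 and Cacna1g, a T-type pore that opens at more negative voltages, 15.6% ± 1.44. The remaining 7 pore genes had 2 to 26 reads each, among them Cacna1h with 23 and Cacna1d with 16. Cacna1a measured 7.60, 8.16 and 13.3 CPM across controls 1 to 3, against 8.89, 9.24 and 10.7 CPM across siArid3a 1 to 3. Of its exonic sequence, 87.4% overlaps no other gene. Cacna1g had 5.86 ± 0.893 and 5.68 ± 1.27 CPM (SD, n = 3 each). The log2 fold changes of −0.00 (SE 0.19) for Cacna1a and −0.04 (SE 0.20) for Cacna1g were within the spread between libraries.

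Beta subunits were dominated by Cacnb3, which made up 91.1% ± 1.08 of the beta level per kilobase (SD, n = 6), with 7.60% ± 1.09 for Cacnb1 and 1.22% ± 0.205 for Cacnb2. Cacnb3 (chromosome 15, 98630840 to 98644529, plus strand) had 106.1, 83.7 and 115.8 CPM across controls 1 to 3, against 81.6, 97.4 and 76.9 CPM across siArid3a 1 to 3. Control library 2 lay among the siArid3a values, so the groups overlapped. Its log2 fold change was −0.26 (SE 0.11), with an unadjusted p of 0.0420 and an edgeR adjusted p of 0.313. With 1 library left out it ran from −0.37 without control library 2 to −0.15 without control library 3. The adjusted p ranged over the alternatives from 0.059 without control library 2, the lowest of the channel genes followed singly, to 0.731 without siArid3a library 3. Cacnb1, the beta subunit best known from skeletal muscle, measured 10.9, 9.11 and 9.79 CPM across controls 1 to 3, against 8.98, 7.31 and 6.57 CPM across siArid3a 1 to 3. All siArid3a values were below all controls, with siArid3a library 1 just under control library 2. The log2 fold change was −0.37 (SE 0.16), at an unadjusted p of 0.0332 and an edgeR adjusted p of 0.289, and it was −0.52 to −0.27 with 1 library left out. Cacnb2, a partner of Cacna1c in heart and artery, had 4.10 ± 0.318 and 4.02 ± 0.298 CPM (SD, n = 3 each). Of its exonic sequence, 84.9% overlaps no other gene. Cacnb4 had 23 reads.

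Of the alpha2delta subunits Cacna2d1, the binding site of gabapentin, made up 99.4% ± 0.293 of the family level per kilobase (SD, n = 6). It measured 57.9, 54.8 and 51.7 CPM across controls 1 to 3, against 56.8, 49.3 and 54.6 CPM across siArid3a 1 to 3, overlapping throughout. The log2 fold change was −0.03 (SE 0.09), with an interval of 0.858 to 1.11 times the control level. The gamma genes Cacng7 and Cacng8, known in brain as partners of AMPA glutamate receptors, had 29.0 ± 2.12 and 7.69 ± 1.70 CPM over all libraries (SD, n = 6), on chromosome 7 at 3332955 to 3368221 and 3390683 to 3415648, next to each other. Their log2 fold changes were 0.08 (SE 0.10) and 0.04 (SE 0.21). Only 57.3% of the exonic sequence of Cacng8 overlaps no other gene, and counts without strand would not tell reads of overlapping genes apart. Cacng1, the gamma subunit of skeletal muscle, had 1 read.

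Among calcium- and sodium-activated potassium channels the intermediate-conductance channel led and the large-conductance channel was low. Kcnn4 (chromosome 7, 24370263 to 24386690, plus strand) made up 76.9% ± 2.63 of the level per kilobase of the 8 pore genes of this family (SD, n = 6). Kcnma1 (chromosome 14, 23289431 to 24014491, minus strand) made up 2.67% ± 0.066 in the controls and 3.94% ± 0.361 in siArid3a (SD, n = 3 each), groups that did not overlap. This share rests on the Kcnma1 reads given below, so it is no separate support. The family shares of Kcnd1 and Kcnj3 did not overlap either, and were lower in siArid3a. Kcnn4 had 46.1, 42.2 and 52.5 CPM across controls 1 to 3, against 38.8, 45.1 and 40.3 CPM across siArid3a 1 to 3. The groups overlapped, with a log2 fold change of −0.18 (SE 0.10), at an edgeR adjusted p of 0.422. It was −0.25 to −0.09 with 1 library left out, nearest 0 without control library 3. Kcnma1 measured 5.31, 4.80 and 5.85 CPM across controls 1 to 3, against 6.93, 6.85 and 7.57 CPM across siArid3a 1 to 3. Every siArid3a library was above every control. Kcnma1 was the only one of the 33 tested channel genes of which this was true, where it was true of 9.66% of all genes tested. Its log2 fold change was 0.42 (SE 0.17), an interval of 1.04 to 1.72 times the control level before adjustment, and the edgeR adjusted p was 0.252. With 1 library left out the log2 fold change was 0.36 to 0.49.

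The ratio of Kcnn4 to Kcnma1 reads sets the pair side by side without any scaling between libraries. It was 8.68, 8.77 and 8.97 across controls 1 to 3, against 5.60, 6.59 and 5.33 across siArid3a 1 to 3. The groups did not overlap, and the two-sided exact permutation test gave p = 0.1, the smallest that 3 against 3 libraries allow. The ratio of Cacnb3 to Cacna1c was 2.27 ± 0.124 in the controls and 1.86 ± 0.152 in siArid3a, again without overlap (exact permutation p = 0.1), and that of Cacna2d1 to Cacna1c was 1.24 ± 0.173 and 1.18 ± 0.182 (SD, n = 3, exact permutation p = 0.7). These 3 ratios were chosen after the values were seen. The first holds Kcnma1, whose groups already did not overlap, so it is no separate support. Adjusted over the 3 the smallest exact permutation p was 0.15, which does not allow for that choice. Of all genes tested singly, 20.0% had groups that did not overlap. The sodium-activated channel gene Kcnt2 had 8.59 ± 1.13 and 8.80 ± 1.04 CPM (SD, n = 3), and 53.8% of its exonic sequence overlaps no other gene. The small-conductance channel genes Kcnn3 and Kcnn1 had 4.17 ± 0.788 and 2.38 ± 0.485 CPM over all libraries (SD, n = 6). Kcnn2, Kcnt1 and Kcnu1 had 3, 4 and 10 reads.

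**Figure D3:**
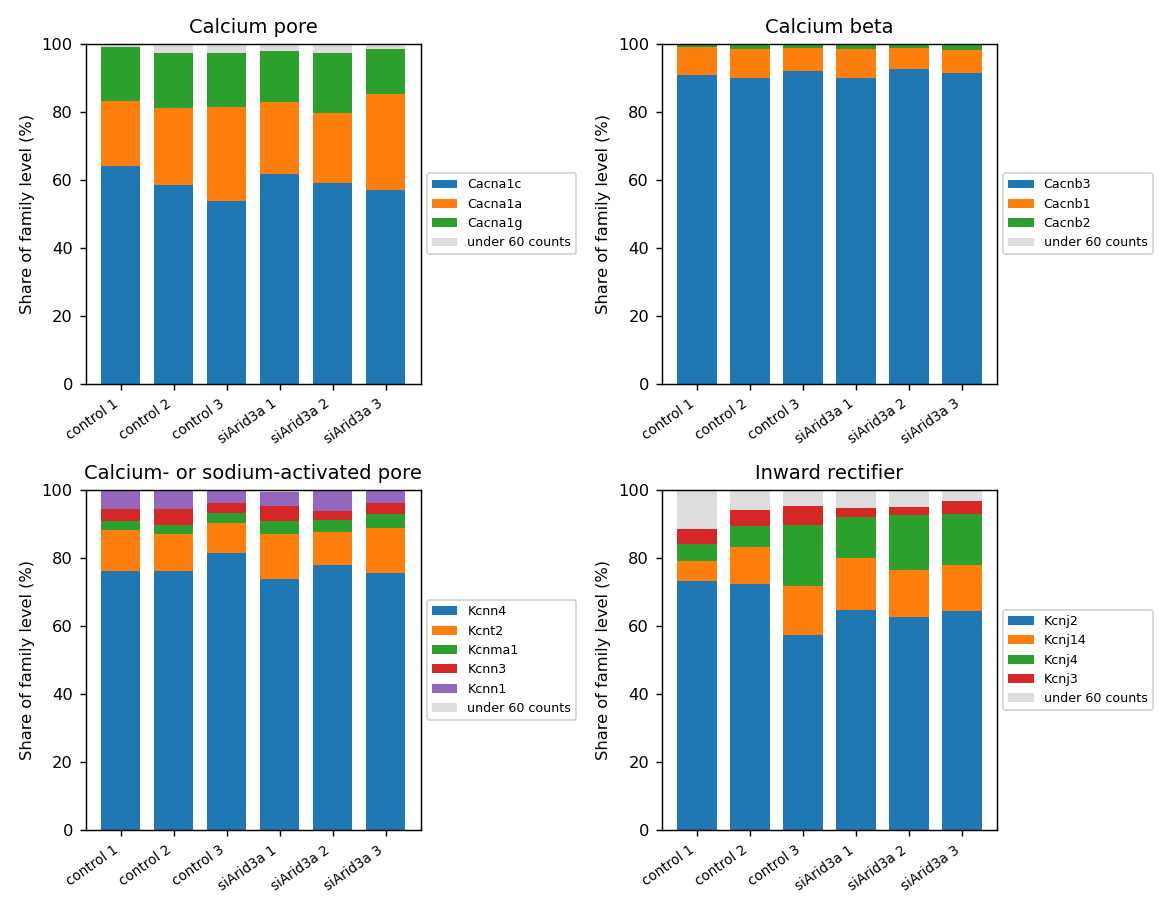
Share of each expressed gene in its family's summed CPM per kilobase of exonic sequence, in percent, in each of the 6 libraries. Grey is the sum of family members under 60 reads. Cacnb3 holds 89.9% to 92.6% of the beta level and Kcnn4 73.9% to 81.6% of the activated family in the single libraries.

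The accessory subunits of the large-conductance channel were hardly read. Kcnmb2, Kcnmb3 and Kcnmb4 had 14, 10 and 4 reads. Kcnmb1, the beta subunit of smooth muscle, was not analysed here. GENCODE M21 gives it no exonic base outside other genes, the overlapping gene being Kcnip1, which had 75 reads. Whether the overlap is why Kcnmb1 had no counts to analyse was not tested. Kcna5, also not analysed, has 100% of its exonic sequence outside other genes. GENCODE M21 holds 118 protein-coding genes that match the name rule, and 21 of them were not analysed here. Of these, 6 have no exonic base outside other genes, among them Kcna3 and Kcne4 besides Kcnmb1.

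The voltage-gated potassium channels were led by a subunit that forms no channel by itself. Kcnf1, a silent subunit that modifies other voltage-gated pores, measured 7.13, 9.79 and 11.2 CPM across controls 1 to 3, against 7.32, 8.78 and 6.78 CPM across siArid3a 1 to 3. The groups of Kcnf1 overlapped, with a log2 fold change of −0.30 (SE 0.18), at an edgeR adjusted p of 0.451. Without control library 1 it was −0.46 and without control library 3 −0.16, the ends of the range with 1 library left out. The A-type genes Kcna4 and Kcnd1, whose channels open and inactivate within a short depolarisation, followed. Kcnd1 (chromosome X, 7822289 to 7838280, plus strand) had 6.30, 4.03 and 4.46 CPM across controls 1 to 3, against 3.01, 2.81 and 2.94 CPM across siArid3a 1 to 3. The siArid3a libraries lay close together and all below the controls, of which library 1 was the highest. Kcnd1 had the smallest p of the channel genes, with a log2 fold change of −0.75 (SE 0.23), unadjusted p of 0.0045 and an edgeR adjusted p of 0.157. The log2 fold change was −0.88 to −0.53 with 1 library left out. Its adjusted p over the alternatives ranged from 0.0633 without a filter on low counts to 0.583 without control library 1, with 0.097 by DESeq2 and 0.539 without siArid3a library 3.

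Kcna4 (chromosome 2, 107290639 to 107298502, plus strand) measured 6.20, 4.90 and 4.81 CPM across controls 1 to 3, against 4.88, 3.33 and 2.47 CPM across siArid3a 1 to 3. Library 1 of siArid3a lay within the control values, so the groups overlapped. The log2 fold change was −0.56 (SE 0.24, unadjusted p of 0.0360), at an edgeR adjusted p of 0.294. It was −0.87 without siArid3a library 1 and −0.35 without siArid3a library 3, where the adjusted p was 0.727. Kcnh2, the pore of the rapid delayed rectifier of the heart, had 1.61 ± 0.546 and 1.90 ± 0.659 CPM, and Kcnq5, a pore of the M-type current that is also found in arteries, had 1.43 ± 0.548 and 1.11 ± 0.280 CPM (SD, n = 3 each). The other 24 genes of the voltage-gated pore family had 1 to 59 reads, Kcnq1 with 28 and Kcna2 with 1 read among them. Kcna5 and Kcna6 were not analysed here.

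Of the subunits that bind voltage-gated pores, the cytoplasmic beta gene Kcnab1 was highest, with 14.4 ± 0.944 and 13.1 ± 1.18 CPM (SD, n = 3), and made up 41.1% ± 2.43 of the accessory level per kilobase (SD, n = 6). Kcnab2 had 4.45 ± 0.863 and 4.46 ± 0.700 CPM. Kcnab3 measured 2.03, 2.13 and 2.20 CPM across controls 1 to 3, against 1.13, 0.936 and 2.10 CPM across siArid3a 1 to 3. Library 3 of siArid3a lay inside the control values and the other pair below them, and the log2 fold change was −0.61 (SE 0.34), at an edgeR adjusted p of 0.414. It was −1.02 without siArid3a library 3 and −0.40 without siArid3a library 2. The exonic sequence clear of any other gene was 81.2% for Kcnab1, 89.3% for Kcnab2 and 69.9% for Kcnab3. Kcnip genes encode calcium-binding partners of Kcnd channels, and Kcnip3, Kcnip4 and Kcnip1 had 151, 121 and 75 reads in all. Kcnip3 differed by −0.46 (SE 0.40), Kcnip4 by −0.04 (SE 0.36) and Kcnip1 by −0.44 (SE 0.47) on the log2 scale, and the interval of Kcnip4 reached past a 1.5-fold change either way. With 1 library left out Kcnip3 ran from −0.96 without siArid3a library 1 to −0.18 without siArid3a library 3, and Kcnip1 from −0.76 without control library 1 to −0.23 without control library 2.

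Kcnj2 led the inward rectifiers with 65.8% ± 6.05 of the family level per kilobase (SD, n = 6). Kcnj2 measured 16.9, 14.6 and 10.2 CPM across controls 1 to 3, against 14.7, 14.3 and 10.5 CPM across siArid3a 1 to 3, with a spread within each group that exceeded the difference between them. Its log2 fold change was −0.08 (SE 0.18). Kcnj3, the pore of a channel opened by G proteins in the atrium and brain, measured 0.989, 0.907 and 0.927 CPM across controls 1 to 3, against 0.567, 0.527 and 0.631 CPM across siArid3a 1 to 3. The groups did not overlap, but these are 16 to 20 reads against 9 to 13, and the log2 fold change was −0.70 (SE 0.40), at an edgeR adjusted p of 0.422. Of its exonic sequence, 68.9% overlaps no other gene. Kcnj14 and Kcnj4, close relatives of Kcnj2, differed by 0.55 (SE 0.37) and 0.66 (SE 0.44) on the log2 scale, with overlapping groups and 147 and 110 reads in all. With 1 library left out Kcnj4 ran from 0.42 without control library 1 to 1.25 without control library 3, and Kcnj14 from 0.33 without control library 1 to 0.73 without control library 3. Kcnj8, the pore of the vascular channel closed by ATP, had 38 reads and Kcnj11 had 1, and the genes of their regulatory subunits, Abcc9 and Abcc8, had 9 and 10.

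Tandem-pore-domain genes, which carry background potassium current, were represented by Kcnk5 and Kcnk2. Kcnk5, an acid-sensitive channel, averaged 5.87 ± 0.703 CPM under control and 6.20 ± 0.885 CPM under siArid3a, and Kcnk2, a channel opened by stretch and lipids, had 6.97 ± 0.475 and 6.20 ± 1.21 CPM (SD, n = 3 each). The log2 fold changes were 0.08 (SE 0.18) and −0.18 (SE 0.18), within the spread between libraries, and that of Kcnk2 ran from −0.33 without siArid3a library 2 to −0.05 without siArid3a library 3. Of the exonic sequence of Kcnk2, 87.8% overlaps no other gene. The other 11 genes of the family had 1 to 53 reads, among them Kcnk3 with 9, Kcnk6 with 15 and Kcnk1 with 1, all of which are known from arteries.

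**Figure D4:**
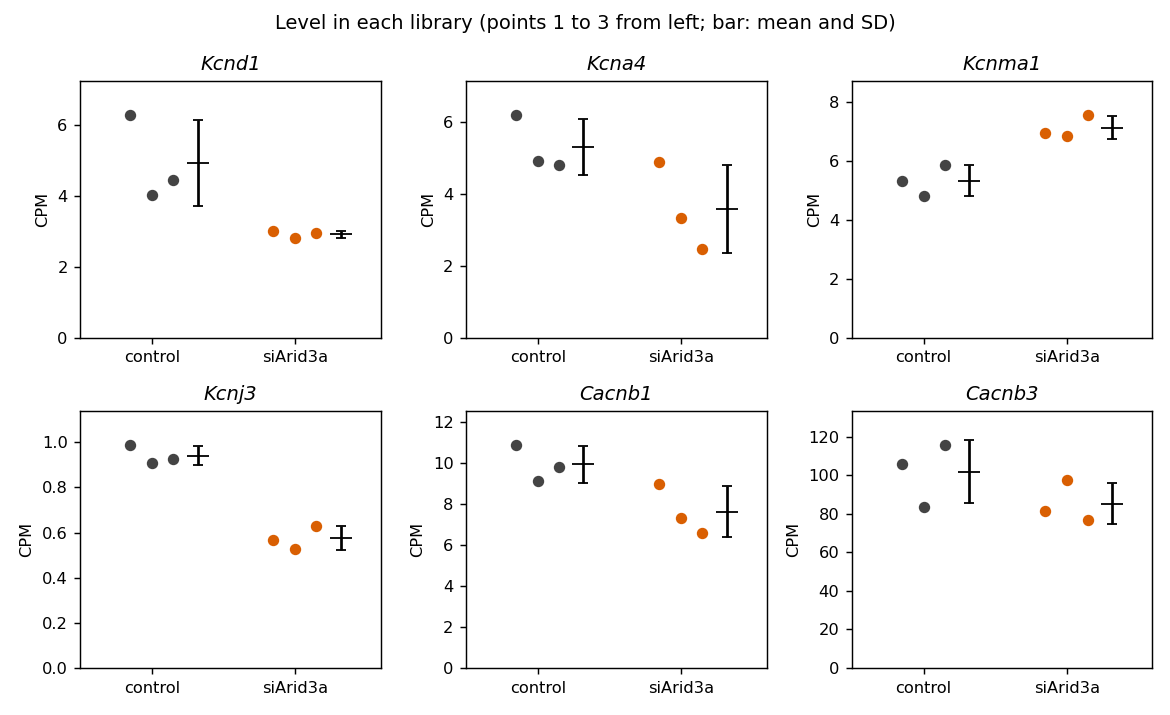
CPM in each library of Kcnd1, Kcna4, Kcnma1, Kcnj3, Cacnb1 and Cacnb3, with the mean and SD of 3 libraries beside the points and each axis starting at 0. The siArid3a points of Kcnd1, Kcnj3 and Cacnb1 are below all controls and those of Kcnma1 above, while Kcna4 and Cacnb3 overlap.

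The comparison of siArid3a with control asked which channel transcripts differ between the transfections. No channel gene was called: of 33 tested, 0 passed an edgeR adjusted p of 0.05, as did 0.0% of all 13234 genes tested. The tested genes were the 32 expressed ones and Kcnh6. At an unadjusted p under 0.05 there were 5 of 33 (15.2%), Kcnd1, Kcnma1, Cacnb1, Kcna4 and Cacnb3, where 14.9% of all genes tested had it. The groups did not overlap in 4 of 33, where 20.0% of all genes tested did not, so the first count is close to the background and the second below it. Lower without overlap were 3 of 33 (9.09%, background 10.4%) and higher 1 (3.03%, background 9.66%). At an unadjusted p under 0.05, 4 of 33 (12.1%) had lower values in siArid3a, where 7.57% of all genes tested did. With higher values there was 1 of 33 (3.03%, background 7.36%). limma-voom called 0 and DESeq2 called 0 channel genes (backgrounds 0.0% and 1.69%), and so did edgeR fits with no low-count filter or after removal of GC and length trends (backgrounds 1.89% and 2.66%). Leaving out control library 2, control library 3 or siArid3a library 2 also left 0 channel genes called (backgrounds 1.0%, 0.694% and 0.273%).

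Below 0 lay 21 of the 33 log2 fold changes, with a median of −0.04, where 51.1% of all genes tested lay below 0 with a median of −0.01. By family, 5 of 6 accessory genes of voltage-gated channels and 3 of 3 calcium channel beta genes were below 0, as were 4 of 7 voltage-gated pore genes, 3 of 5 activated, 2 of 4 inwardly rectifying, 1 of 2 tandem-pore-domain, 2 of 3 calcium pore and 1 of 1 alpha2delta genes, while both calcium channel gamma genes were above 0. The log2 fold changes ran from −0.75 for Kcnd1 to 0.66 for Kcnj4. Summed CPM of the 74 potassium genes was 154.9, 145.7 and 150.7 across controls 1 to 3, against 140.0, 140.6 and 130.8 across siArid3a 1 to 3, all lower than the controls. That of the 23 calcium genes was 275.8, 236.7 and 292.0 in the controls and 249.1, 265.3 and 238.4 in siArid3a, which overlapped. Neither sum was tested, and 10.4% of all genes tested singly were lower in siArid3a without overlap. The potassium sum includes Kcnn4, which averaged 44.2 CPM over all libraries and whose own groups overlapped. In bulk samples fewer cells of a type and less RNA per cell cannot be told apart.

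The 95% interval lay within a 2-fold change either way for 22 of the 33 tested genes and within a 1.5-fold change for 15, and for the others a change of that size was not bounded. Of the 5 best-read genes, Cacna1c, Cacna2d1, Cacng7 and Kcnn4 had intervals between 0.761 and 1.23 times the control level, and that of Cacnb3 ran from 0.707 to 0.993 times before adjustment. Fitted levels more than 1.5-fold from control, none of them called, included 0.594 times for Kcnd1, 0.615 for Kcnj3, 0.657 for Kcnab3 and 1.58 for Kcnj4. For Kcnip1, with 75 reads, it ran from 0.366 to 1.49 times.

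**Figure D5:**
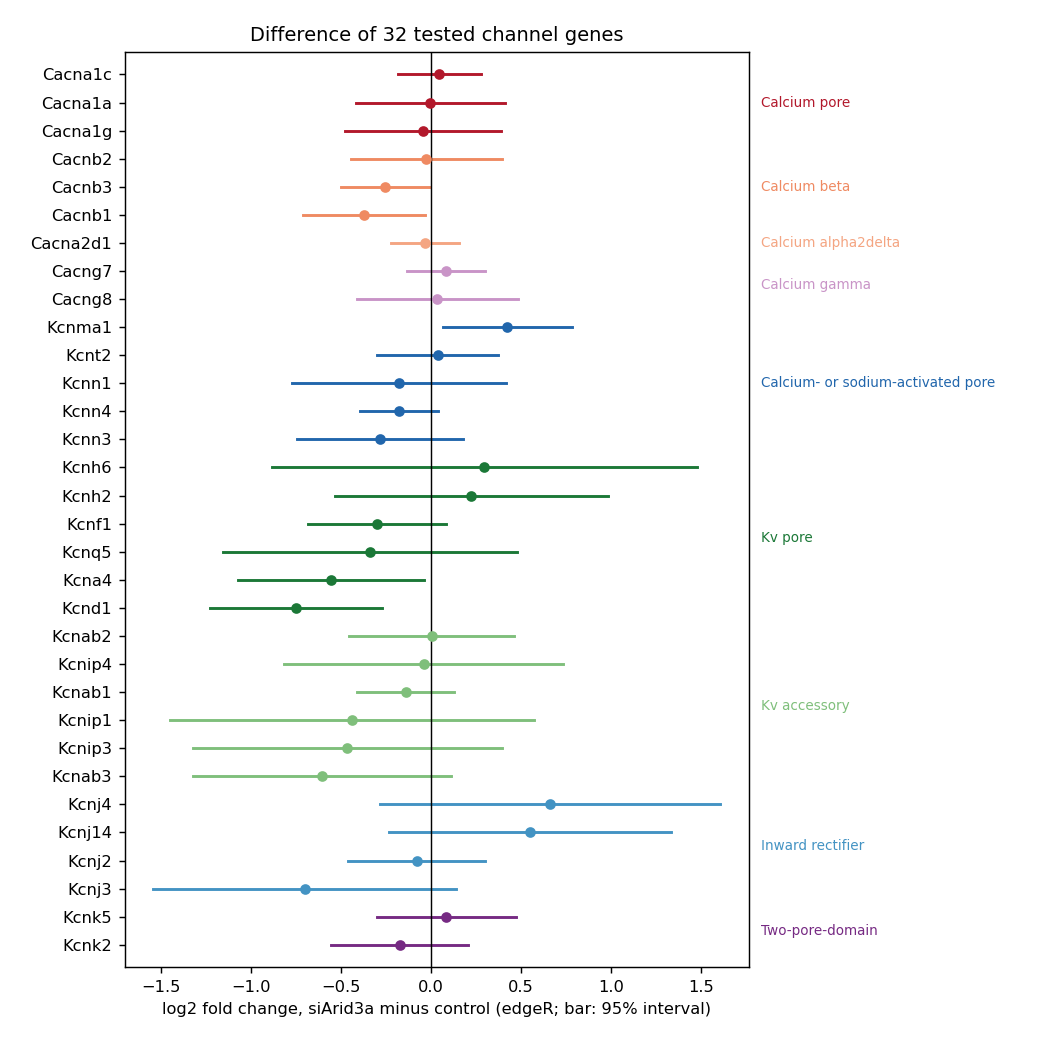
Log2 fold change, siArid3a minus control, of 32 of the 33 tested channel genes by family, with 95% intervals from edgeR before any adjustment over genes. The intervals of Kcnd1, Kcna4, Cacnb1 and Cacnb3 lie below 0 and that of Kcnma1 above 0, and none of the 33 passed after adjustment.

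A list of 25 channel genes known from arterial smooth muscle was set beside these levels. Of these 11 were expressed, among them Cacna1c, Cacna1g, Cacnb2, Cacnb3, Cacna2d1, Kcnma1, Kcnn4, Kcnq5, Kcnj2 and Kcnk2. Another 10 had under 60 reads, from Kcnj8 with 38 to Kcna2, Kcnj11 and Kcnk1 with 1 each, and 4 were not analysed here (Kcnmb1, Kcna3, Kcna5 and Kcna6). Partner genes of calcium handling and membrane potential came from a list of 64, of which 60 had counts to analyse and 50 were tested. None was called, as was 0.0% of all genes tested. Higher in siArid3a were 18 and lower 32, where 51.1% of all genes tested were lower. The partner median was −0.02 on the log2 scale, and that of all genes tested −0.01. Among the most abundant were the calmodulin gene Calm2 and Atp2a2, the calcium pump of the sarcoplasmic reticulum, at −0.06 (SE 0.11) and 0.15 (SE 0.08) on the log2 scale of the difference. The smallest p belonged to Orai3, a store-operated calcium channel gene, with 11.6 ± 0.635 and 8.06 ± 0.850 CPM (SD, n = 3 each) and an edgeR adjusted p of 0.138. Tpcn1, an endolysosomal cation channel gene, and Calm3 followed at −0.32 (SE 0.10) and −0.20 (SE 0.07) on the log2 scale, with edgeR adjusted p of 0.176 and 0.222. The store sensor Stim1 and the receptor channels Itpr1, Itpr2 and Itpr3, which release stored calcium, had log2 fold changes of −0.01, −0.02, −0.00 and −0.03, while the ryanodine receptor genes Ryr1, Ryr2 and Ryr3, the other release channels, had 100, 1 and 28 reads, and Trpc6 had 8.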

How the data were processed

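The deposited values are raw counts, 1 column for each of 6 polyA RNA libraries, made by the authors with STAR 2.7.3a and featureCounts on mm10 per the submitters' processing notes. Annotation, strand setting and read filters: not given in the sources used here. The deposited length equals the gene span, introns included, in all 23197 rows. Exonic length, GC content and overlap with other genes came from GENCODE M21 (GRCm38), in which all 97 channel genes were found by identifier, 93 with the same span.

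Genes were kept by filterByExpr and scaled by TMM, and siArid3a was compared with control by robust quasi-likelihood fits in edgeR 4.0.16 (R 4.3.3) with group as the sole term. Benjamini-Hochberg adjustment ran across the 13234 genes that were tested, with calls made below 0.05. Each SE is the size of the log2 change divided by the root of its F statistic. The fits were tested on simulated counts. Within groups, pairs of libraries differed by more than sampling noise (chi-square per degree of freedom 5.72 to 20.2). The alternatives were other scalings, DESeq2 1.42.0, limma-voom (limma 3.58.1), other filters, a non-robust fit, a replicate block, removal of GC and length trends, genes whose exonic sequence is at least 90% clear of others, a stricter call threshold and the omission of single libraries.

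The members and gene lists were chosen with earlier results of these data known. Genes were named if called, if among the 6 smallest p in each direction, if among the 3 highest of a family, if on the arterial list or if at 48 to 72 reads; partner genes if among the 3 smallest p or the 3 highest. Kcnn1, Kcnn3, Kcnip1, Kcnip3, Kcnip4, the genes under 60 reads and the partner genes Stim1, Itpr, Ryr, Trpc and Abcc were named after their values were seen. Paralog reads can be split by counting. The signature search, planned on RefSeq proteins, used GENCODE M21 coding sequences. A few genes and 1 sequence are not reported here by name, though the genes stay in the fits and counts.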

Additional observations from a re-analysis of the deposited data

How the results depend on the processing

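No channel gene was called under any of the 18 alternative fits or at an adjusted p under 0.01. Over all genes the count of 0 became 223 with DESeq2, 439 without a filter on low counts and 352 after GC and length correction, and 0 to 135 with 1 library left out (135 without control library 2, 94 without control library 3 and 37 without siArid3a library 2). The median log2 fold change of the tested channel genes, −0.04, was −0.14 after GC and length correction, where the cause was not tested, and −0.12 to −0.04 with 1 library left out. The count of expressed genes was 28 to 40 under other thresholds and 32 to 34 without 1 library. With the replicate block, edgeR called 0 genes over all and 0 channel genes. Same-numbered libraries deviated from their group means with correlations of 0.0296, −0.179 and −0.0848, and differently numbered ones with −0.063 to 0.146. With 3 libraries in a group such correlations cannot show whether same-numbered libraries share a culture or day, which the labels do not give.

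Of the 32 tested channel genes followed singly, 19 kept their direction in every fit that held them. Arid3a was 0.03 after GC and length correction and −0.13 to 0.08 with 1 library left out. Cacna1a was 0.0017 with RLE scaling, 0.05 with limma-voom, 0.02 with the replicate block and 0.09 after GC and length correction, under which Cacna1g was 0.03 and Kcnt2 −0.11. Kcnab2 was −0.0094 with upper quartile scaling and −0.01 with library size only. With 1 library left out, log2 fold changes ran from −0.15 to 0.29 for Cacna1a, from −0.05 to 0.14 for Cacna1c, from −0.21 to 0.11 for Cacna1g, from −0.08 to 0.02 for Cacna2d1, from −0.09 to 0.04 for Cacnb2, from −0.12 to 0.3 for Cacng8, from −0.14 to 0.12 for Kcnab2, from −0.02 to 0.54 for Kcnh2, from −0.1 to 0.81 for Kcnh6, from −0.18 to 0.15 for Kcnip4, from −0.25 to 0.08 for Kcnj2, from −0.02 to 0.18 for Kcnk5, from −0.04 to 0.14 for Kcnt2 and from −0.16 to 0.07 for Calm2. How far depth and the spread between libraries each set the intervals was not tested.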
